A study of Homo sapiens with 6 samples.

Results

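The 32 genes described here make, carry, store, break down and respond to retinoic acid, out of 23593 genes that the array's features could be assigned to. They were listed by symbol: 13 enzymes of synthesis and of the retinol and retinaldehyde interconversion, 6 genes of storage and transport, 3 enzymes of breakdown, 6 nuclear receptors and 4 genes named as retinoic acid targets. All 32 had at least 1 feature, 63 in all, and 20 genes had several. Where a gene had several, its feature was chosen by the mean level: the one brightest on average, on the log2 scale, across both groups was taken. The list was drawn up with the result for CYP26B1 already known, and that result is therefore a description of these arrays that supports nothing further.

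The arrays measured total RNA of the HCC-LM3 line, which derives from a human hepatocellular carcinoma. The shASPP2 group was infected for a week with a lentivirus carrying an shRNA against ASPP2, whose gene is TP53BP2. The shNon group was infected for the same time with a lentivirus carrying a control shRNA. Each group had 3 arrays, 1 colour each, from separate cultures of this 1 line. Both groups thus shared the line, the lentiviral infection and the medium with 10% serum. The labels name a single shRNA virus per group, and its sequence is not given in the sources used here.

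Median intensity was between 119 and 122 on the shASPP2 arrays and between 111 and 121 on the shNon arrays. Random-sequence probes, which match no transcript, read between 30.4 and 30.8 on shASPP2 arrays and between 31.8 and 33.3 on shNon arrays. A value above 2 times this level on its own array is called above background here, and 58.9% to 60.9% of features on an array reached it. TP53BP2 read 228, 216 and 147 in shASPP2 cells, against 332, 488 and 452 in shNon cells, so the groups did not overlap. Its geometric mean in shASPP2 cells was 46.2% of that in shNon cells (log2 fold change -1.11, SE 0.25, limma adjusted p = 0.204), which did not pass the threshold of 0.05. Replicate 3 of shNon correlated least with the other arrays (mean r = 0.962 over all features, which are not independent).

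Of the defining hepatocyte markers, ALB lay just above background on all 6 arrays (68.4 ± 4.69 in shASPP2 and 86.5 ± 5.74 in shNon cells, SD, n = 3 each), and AFP, APOA1, APOB, TTR and SERPINA1 were above it on at most 2 arrays. HNF4A, a hepatocyte transcription factor, averaged 3794 ± 605 and 2562 ± 386. FGB, a fibrinogen chain made by hepatocytes, averaged 1128 ± 175 in shASPP2 cells and 3727 ± 293 in shNon cells and fell by 1.73 on the log2 scale (limma adjusted p = 0.0361). Of 4 epithelial genes, the keratins KRT8 (14332 ± 1678 in shASPP2 and 8766 ± 733 in shNon cells) and KRT18 (7429 ± 430 and 6237 ± 430) were higher without overlap. The cadherin CDH1 was lower without overlap, with 200 ± 32.9 in shASPP2 and 613 ± 72.7 in shNon cells (log2 fold change -1.62, limma adjusted p = 0.0518), and EPCAM was below background. In a bulk sample, fewer cells with a transcript and less of it in each cell cannot be told apart.

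Vitamin A reaches cells as retinol, bound in plasma to RBP4 and taken up through STRA6. Retinol is oxidised reversibly to retinaldehyde and then irreversibly to retinoic acid, which binds nuclear receptors of the RAR family paired with RXR at repeated hexamers in DNA. The CYP26 enzymes hydroxylate retinoic acid and so end its action. The liver handles most of the body's vitamin A: hepatocytes take it up and release it on RBP4, and stellate cells store it as esters made by LRAT.

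Of the 32 genes, 1 fell, none rose and 31 did not pass the threshold after adjustment over all genes. Over the 23593 genes tested, 24 passed, which is 0.102% (14 lower, 0.0593%, and 10 higher, 0.0424%). The arrays of the 2 groups did not overlap for 12 of the 32 genes (37.5%), 3 higher and 9 lower in shASPP2 cells, against 18.8% of all genes (9.3% higher and 9.52% lower). At an unadjusted limma p below 0.05, 7 of 32 (21.9%) were counted, 2 higher and 5 lower, against 11.5% of all genes (5.54% higher and 5.93% lower). These shares describe genes chosen with results of these arrays known and are given without a test. The median log2 fold change of the 32 genes was 0.01, and that of all genes was 0.01.

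Not every gene of the list had signal. On all 6 arrays 22 of the 32 genes were above background, 3 genes were above it on some arrays and 7 on none. Among the 22, the groups did not overlap for 11 (50%), 3 higher and 8 lower, against 25.3% of all genes that were above background on all 6 arrays (12.5% higher and 12.7% lower). The 7 genes that never cleared background were RDH12, ALDH1A2, LRAT, CYP26A1, CYP26C1, RXRG and RARRES2, and differences between the groups are not read for them. RXRG, among the 9 lower genes above, is 1 of these 7. Those above it on some arrays were RDH16 on 1 shASPP2 array, CRABP1 on 1 shNon array and ALDH1A3 on all 3 shASPP2 and 2 shNon arrays.

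**Figure D1:**
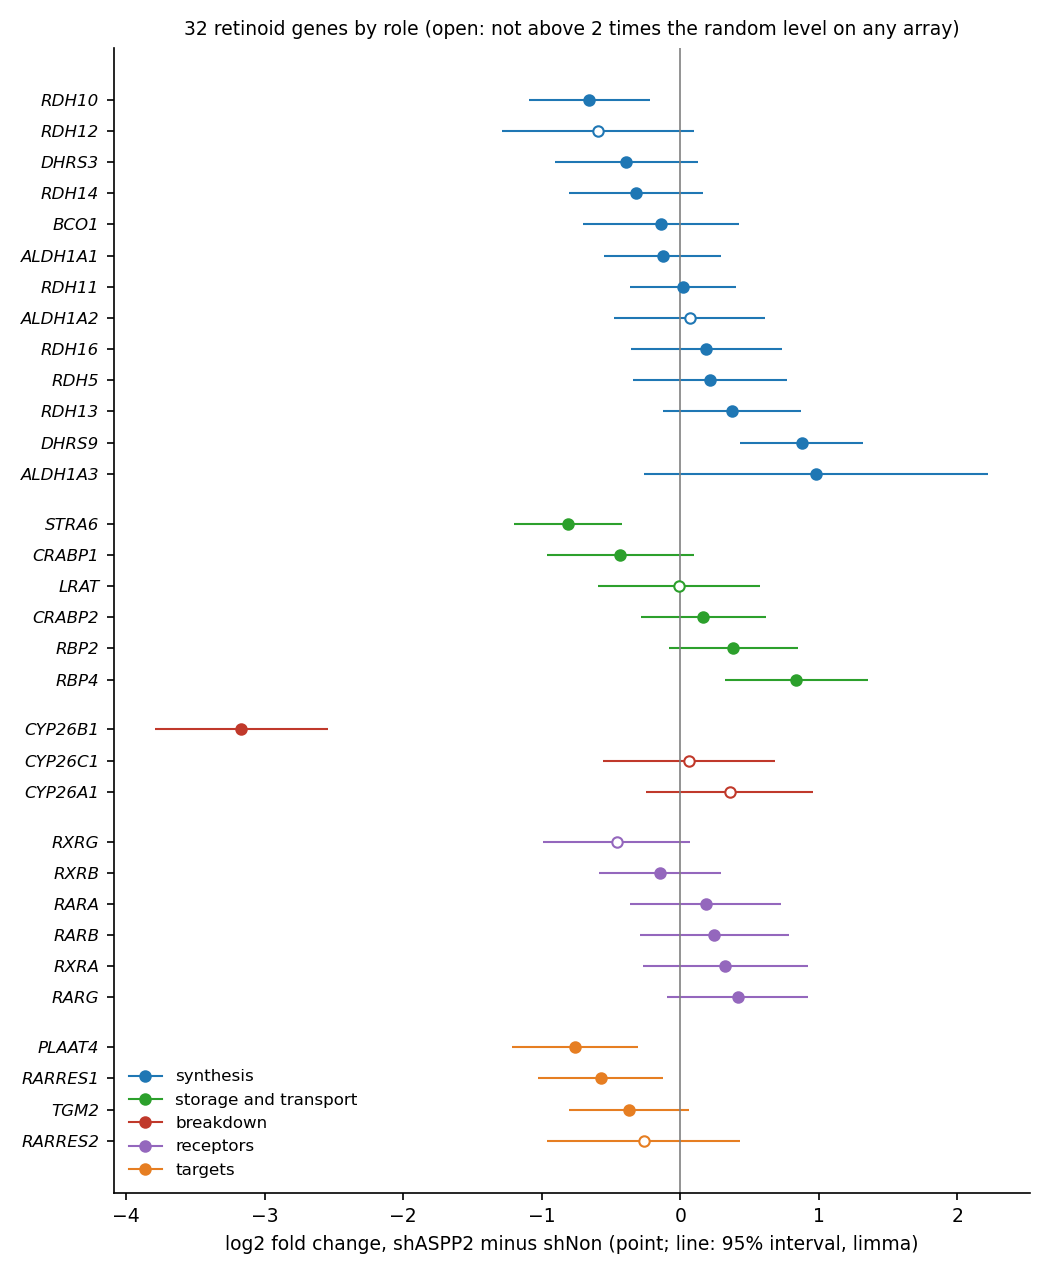
Log2 fold change (shASPP2 minus shNon) of the 32 genes by role, with limma's 95% interval as a line. Open circles mark genes not above 2 times the random-probe level on any array. CYP26B1 lies at -3.17, and all other genes lie between -0.81 and 0.98.

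The gene that fell, CYP26B1, encodes a retinoic acid hydroxylase. Its promoter is printed because CYP26B1 carries the main difference of the list, and those of CYP26A1 and RARB because they alone among the promoters of the list searched held a retinoic acid response element pattern, which the CYP26B1 window lacked. Each is the 250 bases before a gene start, from RefSeq on GRCh38.p14, written 5′ to 3′ along the gene: CYP26B1 at chr2:72147863-72148112 on the minus strand, CYP26A1 at chr10:93073643-93073892 on the plus strand and RARB at chr3:25428013-25428262 on the plus strand. Capitals mark a direct repeat of 2 hexamers with 5 bases between them.
CYP26B1: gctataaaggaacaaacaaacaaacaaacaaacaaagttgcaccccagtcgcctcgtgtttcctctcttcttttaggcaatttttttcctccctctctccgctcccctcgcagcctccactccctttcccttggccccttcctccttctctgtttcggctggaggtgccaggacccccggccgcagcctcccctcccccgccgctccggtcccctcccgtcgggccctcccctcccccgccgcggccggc
CYP26A1: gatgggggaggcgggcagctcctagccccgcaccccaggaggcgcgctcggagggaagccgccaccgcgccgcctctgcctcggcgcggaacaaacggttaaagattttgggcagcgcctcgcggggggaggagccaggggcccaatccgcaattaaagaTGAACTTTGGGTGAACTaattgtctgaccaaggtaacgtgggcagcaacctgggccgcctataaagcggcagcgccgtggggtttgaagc
RARB: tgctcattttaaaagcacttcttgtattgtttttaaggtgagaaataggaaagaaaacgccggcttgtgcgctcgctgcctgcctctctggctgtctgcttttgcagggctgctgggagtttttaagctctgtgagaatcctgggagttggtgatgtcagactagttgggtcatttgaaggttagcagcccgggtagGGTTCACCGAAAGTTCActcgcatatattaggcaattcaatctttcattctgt

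The hexamer AGGTCA, the consensus site of these receptors, was searched on both strands. Its accepted variants were AGTTCA and, as in the other part of the RARB element, GGTTCA, with GGGTCA as a further variant. The repeat with a spacer of 5 bases was in 26 of 35116 such RefSeq windows of all genes (0.074%). Of the 32 genes, 28 had promoter entries, 49 windows in all, and 2 of these windows held the repeat: CYP26A1 on the strand opposite to the gene, 90 to 74 bases before the start, and RARB on the gene's strand, 53 to 37 bases before it. RARB has 4 windows and CYP26A1 has 2, and the other windows of both lacked it. At least 1 single hexamer was in 20 of the 49 windows (40.8%), against 33.8% of all windows, so such a match is common. The CYP26B1 window held none of the 4 hexamers. TGM2, RDH12, RDH10 and PLAAT4 had no entry. A match describes letters in this window and says nothing of a factor's binding.

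CYP26B1 (chr2:72209874-72228471 on hg18) read 338, 485 and 456 in shASPP2 cells, against 3491, 5190 and 2994 in shNon cells. The highest shASPP2 array stood far below the lowest shNon array, and all 6 were above background. The means were 426 ± 77.9 in shASPP2 and 3892 ± 1151 in shNon cells (SD, n = 3 each), and CYP26B1 fell by 3.17 on the log2 scale (SE 0.26, 95% interval -3.79 to -2.55, limma adjusted p = 0.0219). That is an 8.99-fold lower level in shASPP2 cells. The gene's other feature read 37.0, 55.3 and 58.7 in shASPP2 cells, below background on each array, against 114, 281 and 209 in shNon cells, above it on each. As read, the other feature had a log2 fold change of -1.93 (limma adjusted p over all features = 0.146). With the shASPP2 arrays set at their background limits, it was at least 3.08-fold lower in shASPP2 cells, a bound given without a test. Both features thus had non-overlapping groups in the same direction.

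The call of CYP26B1 was lost without any 1 of 5 arrays. Over all 6 ways of leaving out 1 array, its log2 fold change stayed between -3.34 and -2.94. The limma adjusted p was then 0.186, 0.146 and 0.179 without shASPP2 replicates 1, 2 and 3, 0.0735 and 0.0938 without shNon replicates 1 and 2, and 0.0415 without shNon replicate 3. It passed the threshold in 11 of 17 alternative analyses. Among these 11, the deposited value table holds the same values as the main analysis, so its result could not differ.

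The other CYP26 enzymes had no signal to compare. CYP26A1, the family member that retinoic acid induces most widely, read 43.0, 31.2 and 22.6 in shASPP2 cells, against 26.1, 23.0 and 24.1 in shNon cells. CYP26C1 read 27.9, 51.6 and 43.7 in shASPP2 cells, against 37.5, 43.6 and 33.8 in shNon cells. No array of either group was above background for either gene.

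**Figure D2:**
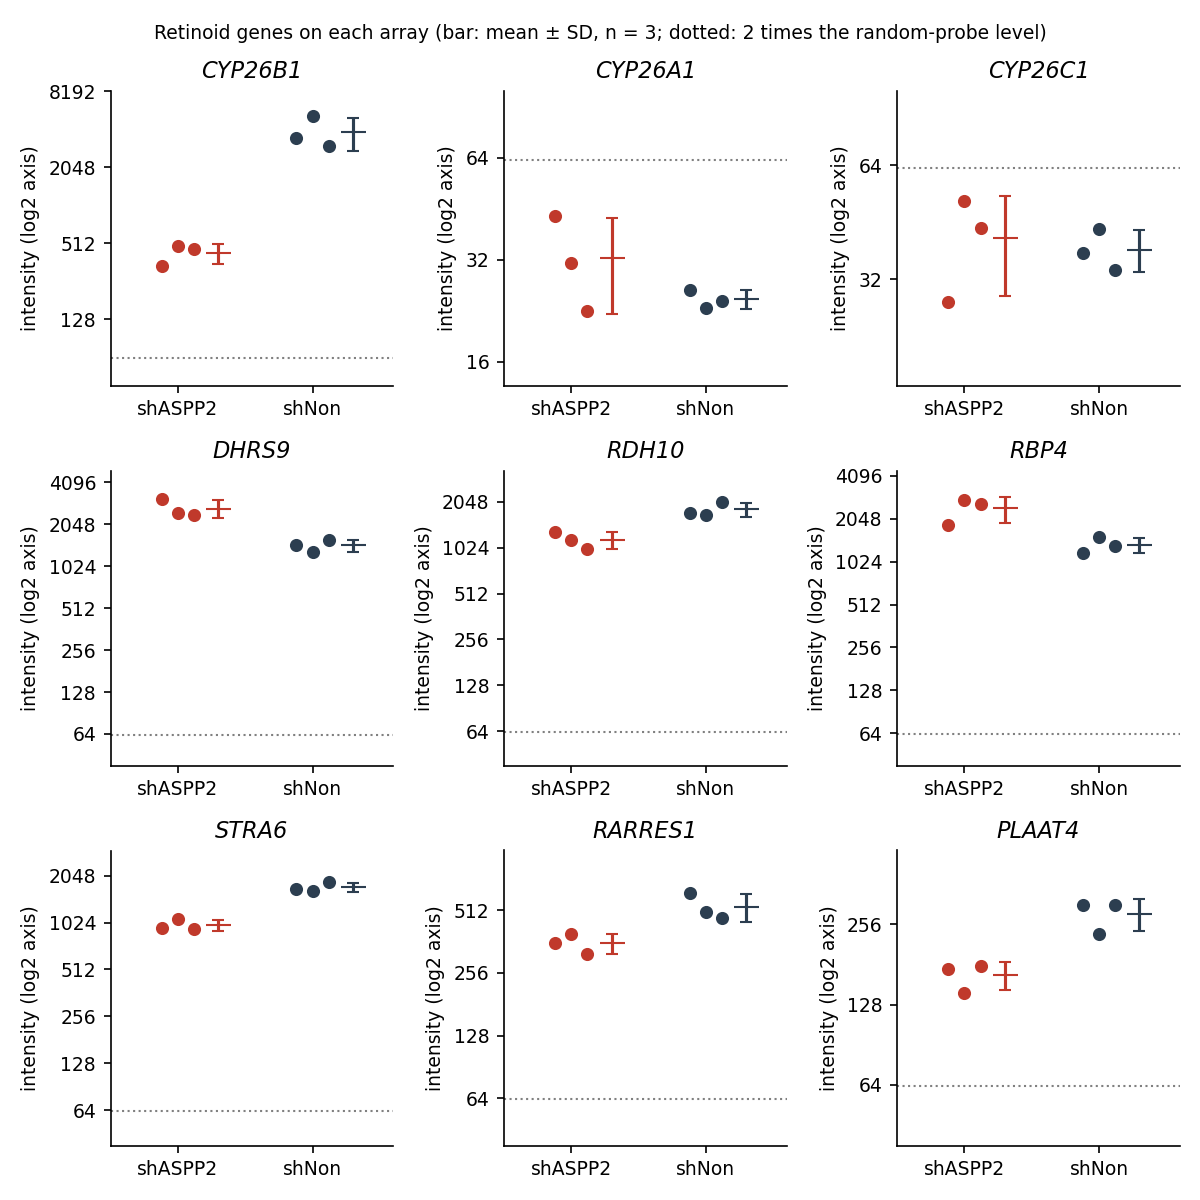
Intensity on each array (log2 axis) of the 9 genes that the rule for array by array values takes, with shASPP2 on the left and shNon on the right. Points are arrays, the bar is the mean with its SD (n = 3), and the dotted line is 2 times the random-probe level. The groups do not overlap for CYP26B1, DHRS9, RDH10, RBP4, STRA6, RARRES1 and PLAAT4, while CYP26A1 and CYP26C1 stay under the line.

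Among the 13 genes of synthesis and interconversion, none passed the threshold, and the median log2 fold change was 0.02. The groups did not overlap for 4 of them (30.8%, against 18.8% of all genes), DHRS9 higher (9.3% of all genes) and RDH10, DHRS3 and RDH14 lower in shASPP2 cells (9.52% of all genes). DHRS9, a dehydrogenase that oxidises retinol and also acts on steroids, read 3114, 2461 and 2401 in shASPP2 cells, against 1450, 1302 and 1578 in shNon cells. All shASPP2 arrays were above all shNon arrays. The means were 2659 ± 395 and 1443 ± 138, with a log2 fold change of 0.88 (SE 0.19, 95% interval 0.43 to 1.32, limma adjusted p = 0.196). Its other feature averaged 1622 ± 142 in shASPP2 and 739 ± 122 in shNon cells, a log2 fold change of 1.14, again without overlap.

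RDH10, the main retinol dehydrogenase of retinoic acid synthesis in the embryo, read 1305, 1158 and 1009 in shASPP2 cells, against 1739, 1678 and 2056 in shNon cells. Here every shASPP2 array was below every shNon array. The means were 1158 ± 148 and 1824 ± 203, with a log2 fold change of -0.66 (SE 0.19, 95% interval -1.10 to -0.22, limma adjusted p = 0.282). RDH10 has 1 feature, so no other feature could be set beside it.

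DHRS3, which reduces retinaldehyde back to retinol, averaged 6588 ± 583 in shASPP2 and 8775 ± 2162 in shNon cells (log2 fold change -0.39, limma adjusted p = 0.544). Its other feature had a log2 fold change of -0.49, with 6158 ± 268 in shASPP2 and 8646 ± 594 in shNon cells and no overlap. RDH14 averaged 174 ± 30.2 and 216 ± 27.0, a log2 fold change of -0.32, and its other feature was at -0.05 with overlapping groups. The groups lay near each other for both: the closest arrays were 7046 in shASPP2 and 7466 in shNon cells for DHRS3, and 194 in shASPP2 and 199 in shNon cells for RDH14.

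The remaining enzymes had overlapping groups. RDH11, a retinaldehyde reductase, averaged 3227 ± 80.4 in shASPP2 and 3187 ± 272 in shNon cells, a log2 fold change of 0.02 with a 95% interval of -0.36 to 0.40. ALDH1A1, a cytosolic enzyme that turns retinaldehyde into retinoic acid, averaged 9423 ± 1201 and 10262 ± 862, a log2 fold change of -0.13 with a 95% interval of -0.55 to 0.30. Neither gene thus showed a difference larger than the spread between arrays. RDH5, known from the visual cycle of the retina, was at 0.22 and its other feature, also above background on all 6 arrays, at -0.32. RDH13 was at 0.37, and BCO1, which cleaves beta-carotene into retinaldehyde, was at -0.14.

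ALDH1A3, another retinaldehyde dehydrogenase, had the largest SE of the 32 genes and was given array by array after this was seen. It read 163, 168 and 182 in shASPP2 cells, against 93.5, 186 and 37.3 in shNon cells. The shASPP2 arrays lay close together and the shNon arrays on both sides of them, with shNon replicate 3 below background. Its log2 fold change was 0.98 with an SE of 0.53 (limma adjusted p = 0.532). It was 0.37 without shNon replicate 3, 1.53 without shNon replicate 2 and between 0.93 and 1.03 without any 1 of the other arrays. The gene's other feature averaged 41.8 ± 13.8 in shASPP2 and 33.5 ± 11.1 in shNon cells, below background on every array. The values above thus belong to 1 feature and cannot be given for the gene as a whole.

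Of the 6 genes of storage and transport, none passed the threshold, and the groups did not overlap for RBP4, RBP2 and STRA6 (3 of 6, against 18.8% of all genes). RBP4, the plasma carrier of retinol, read 1858, 2790 and 2606 in shASPP2 cells, against 1176, 1516 and 1326 in shNon cells. The shASPP2 arrays were all higher. The means were 2418 ± 494 and 1339 ± 170, with a log2 fold change of 0.84 (SE 0.22, 95% interval 0.32 to 1.36, limma adjusted p = 0.252), from its 1 feature.

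STRA6, the membrane receptor that takes retinol from RBP4, read 951, 1073 and 932 in shASPP2 cells, against 1685, 1634 and 1855 in shNon cells. The shASPP2 arrays were all lower, the opposite side to RBP4. The means were 985 ± 76.1 and 1725 ± 116, with a log2 fold change of -0.81 (SE 0.17, 95% interval -1.20 to -0.42, limma adjusted p = 0.184). The features of STRA6 disagreed: the other one averaged 121 ± 30.0 in shASPP2 and 107 ± 42.0 in shNon cells, a log2 fold change of 0.22 with overlapping groups, and the mean of both features gave -0.29.

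CRABP2, which carries retinoic acid to the receptors, averaged 9690 ± 980 in shASPP2 and 8667 ± 1262 in shNon cells, a log2 fold change of 0.17 with overlapping groups. RBP2, the cellular retinol carrier of the intestine, averaged 129 ± 24.0 and 98.1 ± 8.54, a log2 fold change of 0.38 (limma adjusted p = 0.514). The arrays of RBP2 nearest to each other were 110 in shASPP2 and 108 in shNon cells, and its other feature was above background on 1 array.

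The 6 receptors held no gene past the threshold, and their lowest limma adjusted p was 0.494, of RXRG. RXRA, RXRB, RARA, RARB and RARG were above background on all 6 arrays and their groups overlapped, while RXRG was below background on all 6. The retinoic acid receptor RARA averaged 484 ± 108 in shASPP2 and 425 ± 78.5 in shNon cells, a log2 fold change of 0.18. All 4 features of RARA were higher in shASPP2 cells, at log2 fold changes between 0.18 and 0.49, and 1 of them had non-overlapping groups.

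RARG averaged 1095 ± 249 in shASPP2 and 807 ± 38.0 in shNon cells, a log2 fold change of 0.41 with a 95% interval of -0.10 to 0.92. The other RARG feature was at 0.44 and its groups did not overlap. RARB, itself a known target of retinoic acid, averaged 184 ± 33.0 and 155 ± 32.2, a log2 fold change of 0.25 with a 95% interval of -0.29 to 0.79. Its other features were at 0.40, above background on 3 arrays, and at -0.08, above it on 2 arrays, both with overlapping groups. The partner receptors RXRA and RXRB had features on both sides of 0, from -0.14 to 0.39 over 5 features of RXRA and from -0.47 to 0.03 over 4 features of RXRB. The RXRA feature at -0.14 was lower without overlap, its nearest arrays being 1156.5 in shASPP2 and 1156.8 in shNon cells.

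Of the 4 genes named as retinoic acid targets, none passed the threshold. PLAAT4, RARRES1 and TGM2 were lower in shASPP2 cells without overlap (3 of 4, against 9.52% of all genes), and RARRES2, the chemerin gene, was below background. The median log2 fold change of the 4, RARRES2 included, was -0.47. PLAAT4, a phospholipid-metabolising enzyme formerly called RARRES3, read 174, 142 and 178 in shASPP2 cells, against 301, 236 and 302 in shNon cells. Each shASPP2 array was lower than each shNon array. The means were 165 ± 20.0 and 280 ± 37.9, with a log2 fold change of -0.76 (SE 0.19, 95% interval -1.22 to -0.31, limma adjusted p = 0.246).

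RARRES1, a membrane protein gene first found by its induction with a synthetic retinoid, read 356, 395 and 315 in shASPP2 cells, against 620, 503 and 469 in shNon cells. These groups did not overlap either. The means were 355 ± 39.9 and 531 ± 79.2, with a log2 fold change of -0.57 (SE 0.19, limma adjusted p = 0.348). Its other feature went the other way, with 421 ± 92.0 in shASPP2 and 361 ± 64.8 in shNon cells and overlapping groups, a log2 fold change of 0.21. TGM2, a protein-crosslinking enzyme, averaged 10584 ± 689 in shASPP2 and 13769 ± 2167 in shNon cells (log2 fold change -0.37, limma adjusted p = 0.50), and its 2 other features were at -0.16 and -0.44 with overlapping groups.

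How far the features of 1 gene gave the same direction was counted over the 15 genes with at least 2 features that cleared background on some array. In 7 of them, CYP26B1, DHRS3, DHRS9, RARA, RARG, RDH14 and TGM2, all such features had the same sign. In the other 8, among them STRA6 and RARRES1, they did not. For STRA6 and RARRES1 the difference therefore belonged to 1 feature and cannot be given for the gene as a whole.

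**Figure D3:**
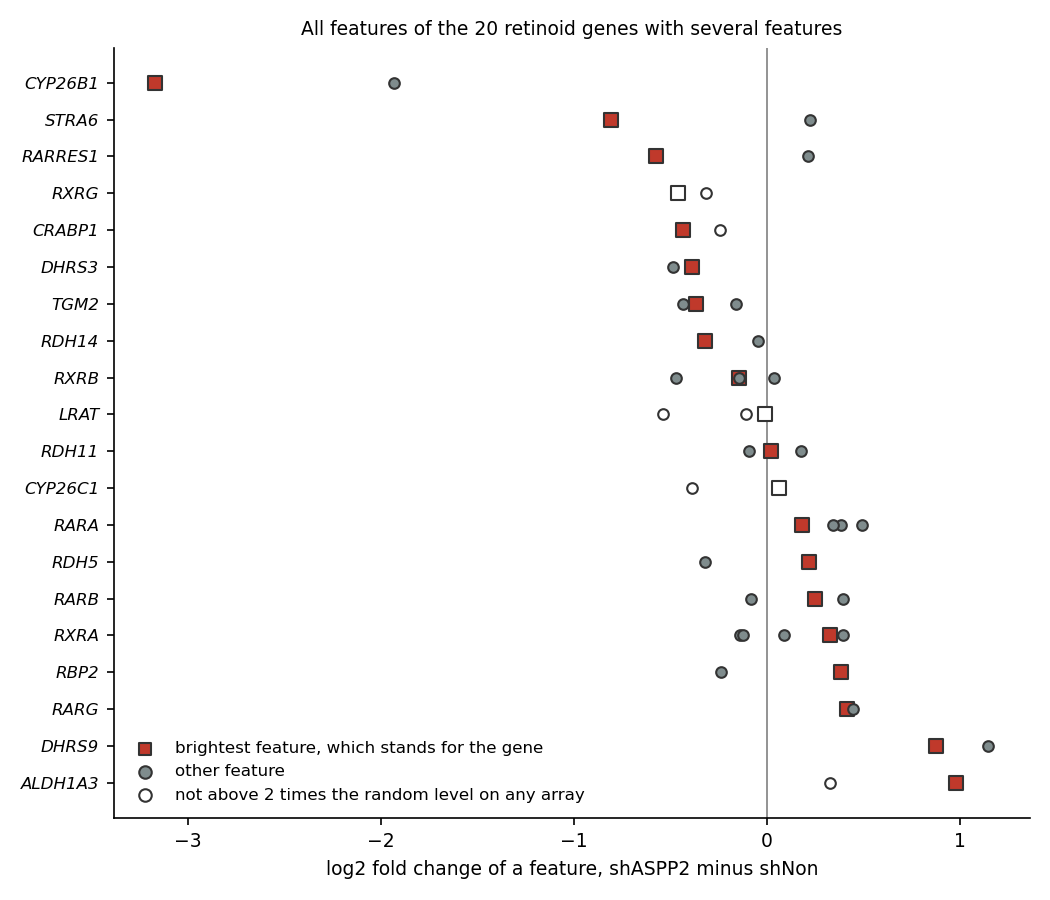
Log2 fold change (shASPP2 minus shNon) of every feature of the 20 genes with several features. Squares are the brightest feature, which stands for the gene, circles are other features and open symbols were not above background on any array. Both CYP26B1 and both DHRS9 features lie on 1 side of 0, while those of STRA6 and RARRES1 lie on both sides.

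Calls of single genes differed between variance settings and between the sets of genes tested. With a variance trend and robust estimation, limma called 506 genes (2.14%) and 5 of the 32: CYP26B1, DHRS9 (adjusted p = 0.00215), STRA6 (0.00423), RBP4 (0.00692) and RDH10 (0.0246). With only the genes above the median level tested, limma called 247 of 11960 genes (2.07%) and 3 of the 32: CYP26B1, STRA6 (adjusted p = 0.0369) and DHRS9 (0.0432). PLAAT4 passed in none of the 17 alternatives, with adjusted p between 0.0688 and 0.598.

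Other genes of the pathway were taken from 3 further lists, also chosen with earlier results of these data known. Shares over these lists are descriptions, given without a test. Of 31 other retinoid enzymes and carriers, 2 fell, none rose and 29 did not pass the threshold, which 0.102% of all genes passed. The groups did not overlap for 9 of the 31 (29%), 4 higher and 5 lower. Among all genes this share was 18.8% (9.3% higher and 9.52% lower). Both that fell are class I alcohol dehydrogenases, which oxidise ethanol and also retinol. ADH1A read 673, 451 and 459 in shASPP2 cells, against 4826, 5403 and 4706 in shNon cells, and fell by 3.26 on the log2 scale (SE 0.21, limma adjusted p = 0.0125). ADH1C read 553, 519 and 618 in shASPP2 cells, against 5082, 5222 and 6748 in shNon cells, and fell by 3.33 (SE 0.19, limma adjusted p = 0.00971). ADH1A, ADH1B and ADH1C are near-identical in sequence, so their probes may share targets and the split between them is uncertain. The 2 calls may therefore not be separate. Over the 3 lists together, 0 genes passed without any 1 of the shASPP2 arrays or without shNon replicate 2, 2 without shNon replicate 1 and 3 without shNon replicate 3.

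Of 18 receptor coregulators and ligand shuttles, 0 passed limma's threshold, against 2 at an unadjusted p below 0.05. These 2 are 11.1% of the list, near the 11.5% of all genes. The groups did not overlap for 3 (16.7%), all higher in shASPP2 cells, which is near the 18.8% of all genes, of which 9.3% were higher. Of the 18 genes, 15 were above background on all 6 arrays. Among all genes with such signal the share was 25.3% (12.5% higher). CREBBP, a histone acetyltransferase, averaged 461 ± 48.0 in shASPP2 and 316 ± 47.0 in shNon cells, a log2 fold change of 0.55 (limma adjusted p = 0.354). FABP5, a fatty acid binding protein that can also carry retinoic acid, averaged 2403 ± 403 and 1668 ± 216, a log2 fold change of 0.52 (limma adjusted p = 0.400). EP300, the paralogue of CREBBP, was at 0.23.

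Of 41 other genes known to respond to retinoic acid in some cell types, 0 passed limma's threshold, against 9 at an unadjusted p below 0.05. All genes had 11.5% at that p. The groups did not overlap for 12 of the 41 (29.3%), 3 higher and 9 lower, against 18.8% of all genes (9.3% higher and 9.52% lower). PLAT, the tissue plasminogen activator, averaged 569 ± 49.3 in shASPP2 and 168 ± 54.5 in shNon cells, a log2 fold change of 1.81 (limma adjusted p = 0.103). Lower in shASPP2 cells were the homeobox gene HOXA3 (1033 ± 13.3 against 2007 ± 133, log2 fold change -0.96), the liver transcription factor FOXA1 (314 ± 45.1 against 589 ± 68.8, -0.91) and the adhesion molecule ICAM1 (5125 ± 551 against 9000.0 ± 707, -0.81). NTRK2 also had non-overlapping groups but was below background. PLAT and the lower genes lay on opposite sides, and the median of the list was -0.05.

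**Figure D4:**
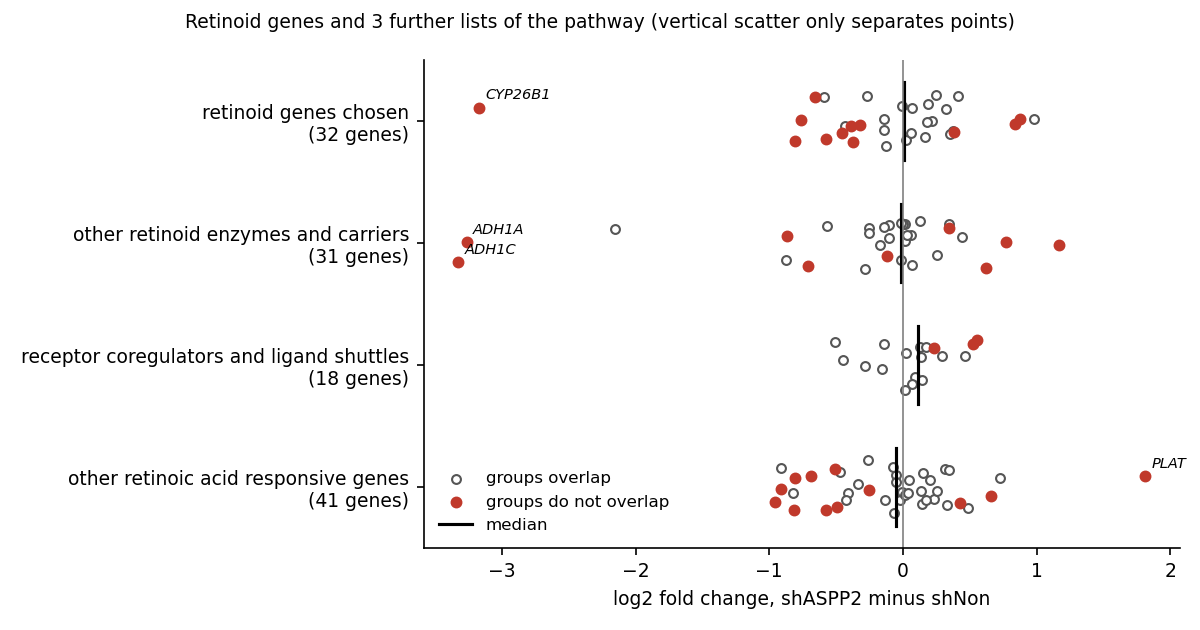
Log2 fold change (shASPP2 minus shNon) of the 32 retinoid genes and of 3 further lists of the pathway, 1 point a gene, filled where the groups do not overlap, with the median of each list as a line. The medians lie between -0.05 and 0.11, and CYP26B1, ADH1A and ADH1C lie below -3.

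Markers of the cells that store vitamin A were read beside these values. Of 8 stellate cell and fibroblast genes, COL1A1 and LUM were above background on all 6 arrays, DCN and COL3A1 on some, and PDGFRB, DES, ACTA2 and COL1A2 on none. Their summed intensity was between 652 and 787 in shASPP2 and between 537 and 747 in shNon cells, so the groups overlapped, as they did for each of the 8 genes. LRAT was below background as well. The 5 endothelial genes summed to between 987 and 1220 in shASPP2 and between 2025 and 2137 in shNon cells, nearly all of it PECAM1, with VWF, CDH5, KDR and TEK above background on few arrays or none. The 5 leukocyte genes summed to between 4171 and 4771 in shASPP2 and between 3409 and 4465 in shNon cells, most of it CD68. The part of endothelial and hepatocyte genes in the differences above was not tested.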

How the data were processed

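RNA of 3 shASPP2 and 3 shNon samples of HCC-LM3 cells was read on 1-colour (Cy3) NimbleGen arrays. The intensity of each feature was deposited by the authors as a linear RMA summary, according to the submitters' processing notes. The version and settings of RMA are not given in these sources. RMA as usually defined equalises intensity distributions between arrays, which hides differences in total RNA, and compresses dim signals. Positions of features are on hg18, as the files give them. Symbols were updated through gene identifiers and accessions with RefSeq's gene table for GRCh38.p14 (38916 and 78 features, with 3954 kept as in the files and 2085 unnamed of 45033). The brightest feature by mean log2 intensity stood for each of 23593 genes.

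Log2 intensities were fitted with limma 3.58.1 (lmFit, eBayes) under R 4.3.3. Group was the single term, and two-sided p-values were adjusted by Benjamini-Hochberg over all genes, with a threshold of 0.05. The fit was tested on simulated data whose changed genes moved about as far as CYP26B1, which does not cover smaller differences. Errors are SDs over 3 arrays, or limma's SE for log2 fold changes. Precision is limited by the number of arrays. The smallest p of an exact permutation test of 1 value is 0.1. The arrays come from separate cultures of 1 line, so p-values measure the spread between these cultures.

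The members and lists were chosen with earlier results of these data known. All 32 members are named. They are given array by array if the groups do not overlap, the log2 fold change is at least 0.5 in size and the higher mean is above 2 times the random level, or if they are CYP26 genes. From each other list come the genes past the threshold or, without any, up to 5 of the smallest p among those without overlap. A lower bound takes the larger of the dim value and 2 times the random level on each dim array. Alternatives were median centring, cyclic loess, the deposited value table, subtraction of the random level, filters on dim features, variance trend with robust estimation, array weights, the replicate block, the mean of features, all features, and leaving out each array.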

Additional observations from a re-analysis of the deposited data

How the results depend on the processing

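Of 524 comparisons of a gene of the list with its value under an alternative, 497 kept direction and side of the threshold, 15 turned direction, 6 passed newly and 6 no longer passed. The deposited value table holds the values of the main analysis, so its comparisons could not differ. The filters, variance trend with robust estimation, the replicate block and all features leave log2 fold changes unchanged, so direction could not turn there. The count is therefore no measure of robustness. The genes of the list past the threshold numbered 1, against 3 with genes above the median level, 5 with variance trend and robust estimation, 0 with the replicate block and 0 to 1 without 1 array. All genes past it numbered 24, against 77 with the random level subtracted, 115 with features above 2 times that level, 247 above the median level, 506 with trend and robust estimation, 40 with the mean of all features, 0 with the replicate block and 0 to 6 without 1 array. The other pathway genes past it numbered 2, against 4, 7 and 8 with the filter at 2 times the random level, the filter at the median and trend with robust estimation, 0 with the block and 0 to 3 without 1 array. Fewer arrays or residual degrees of freedom remain in the last 2 settings, and for the others the cause was not tested. Deviations from the group means correlated at 0.08, -0.10 and -0.14 between same-numbered samples and at -0.11 to 0.18 between differently numbered ones. So few values cannot show whether same-numbered samples were handled in pairs. With the replicate block CYP26B1 stayed at -3.17 with a limma adjusted p of 0.207. TP53BP2 passed with trend and robust estimation (-1.11, limma adjusted p = 0.0256). The median log2 fold change of the list was -0.13 with the mean of all features and -0.05 to 0.04 without 1 array. Directions that turned were of small differences, most of them below background: RDH11 -0.012 with median centring, LRAT 0.13 and RARRES2 0.043 with the random level subtracted, LRAT 0.10 with array weights, and RDH5 -0.054 and CYP26C1 -0.16 with the mean of all features. Without 1 array, log2 fold changes ranged from -0.21 to 0.13 for LRAT, -0.13 to 0.32 for CYP26C1, -0.12 to 0.22 for ALDH1A2, -0.27 to 0.081 for BCO1 and -0.027 to 0.089 for RDH11. Signal limits the 7 genes below background.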

Other observations

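Some other retinoid genes, chosen after their values were seen, also differed in their group means without passing the threshold. Their differences were smaller than those of CYP26B1, ADH1A and ADH1C. PNPLA3, a lipase that also releases retinol from its esters, averaged 405 ± 29.0 in shASPP2 and 184 ± 43.4 in shNon cells, a log2 fold change of 1.17 (limma adjusted p = 0.168), without overlap. BCO2, which cleaves carotenoids, averaged 106 ± 20.4 in shASPP2 and 175 ± 42.6 in shNon cells, a log2 fold change of -0.71 (limma adjusted p = 0.359), also without overlap. HSD17B6, a retinol and steroid dehydrogenase, averaged 130 ± 20.3 in shASPP2 and 78.2 ± 24.2 in shNon cells, a log2 fold change of 0.77 (limma adjusted p = 0.362). Its shNon replicate 2 read 53.0, below background. ADH1B, the near copy of ADH1A and ADH1C, read 131, 94.3 and 85.8 in shASPP2 cells, against 984, 797 and 119 in shNon cells (limma adjusted p = 0.361). Replicate 3 of shNon was thus close to the shASPP2 arrays for ADH1B, which was not so for ADH1A or ADH1C.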
